A study of Mus musculus with 6 samples.

Results

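The astrocyte nuclei described here are the 624 nuclei that the authors' annotation of the droplet library calls Astrocyte, out of 7031 annotated nuclei (8.87%, exact Clopper-Pearson 95% interval 8.22 to 9.56%). All 624 came from 1 of the authors' 14 clusters, and the other 6407 nuclei fall into 11 further classes: 6 of neurons that the authors name ExNeuron1 to ExNeuron6, oligodendrocytes, oligodendrocyte precursors (OPC), endothelial cells, microglia and fibroblasts. The study tested single-nucleus RNA profiling of formalin-fixed, paraffin-embedded (FFPE) tissue, and the droplet library is 1 of its 6 samples. It was made from 50 µm scrolls of C57BL/6J mouse brain, with an age of 8 to 12 weeks and the tissue given as cortex, although genes known from the cerebellum were also present, as given with the regional markers. How many mice were used and their sex were not given in the sources used here. Several ways of removing paraffin are listed, without naming the one behind this library. With 1 library there are no replicates, so no test across nuclei was made, and each interval below covers counting error only.

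Astrocytes are the glial cells that take up glutamate and GABA from around synapses, buffer potassium and water, supply neurons with lipids and metabolites, and engulf synapses and debris. In cortex they fill the grey matter with fine processes that touch synapses and blood vessels. Bergmann glia are the radial astrocytes of the cerebellum, known for AMPA receptors on processes that wrap Purkinje cell synapses.

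The nuclei were shallow. Astrocyte nuclei held 239 to 966 unique molecular identifiers (UMIs, each standing for 1 captured RNA molecule), with a median of 339 (quartiles 289 and 414) and a median of 289.5 genes. The other nuclei had a median of 324 UMIs, and class medians ran from 285 in microglia to 396 in fibroblasts. The mitochondrial share of UMIs had a median of 3.82% in astrocyte nuclei, the highest of the 12 classes, against 3.41% over all other nuclei. In all, the astrocyte nuclei gave 234101 UMIs and the other nuclei 2371097. Levels are given in CPM, the UMIs of a gene summed over the nuclei of a class, divided by all UMIs of that class and multiplied by 1000000. A gene with 0 UMIs in astrocyte nuclei may have a level of up to 12.8 CPM, taken as 3 UMIs of their total. A ratio is the level in astrocyte nuclei divided by that in all other annotated nuclei.

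The label was first checked against 5 astrocyte markers. Slc1a2 and Slc1a3 encode the main glial glutamate transporters, Mertk an engulfment receptor, Gpc5 a cell-surface heparan sulfate proteoglycan and Prex2 an exchange factor for Rac. All 5 were higher in astrocyte nuclei than in each of the other 11 classes, although the authors' clusters were drawn from the same counts, so this describes the class and tests nothing. Mertk had 106 UMIs in astrocyte nuclei and 60 in all others, or 453 against 25.3 CPM (ratio 17.9, 95% interval 12.9 to 24.99). Prex2 stood at 735 against 59.9 CPM (12.3, 9.77 to 15.4). Gpc5 stood at 2221 against 203.7 CPM (10.9, 9.62 to 12.4). The 2 transporters had smaller ratios. Slc1a3 stood at 1410 against 220.6 CPM (6.39, 5.55 to 7.35), and Slc1a2 at 2345 against 971 (2.41, 2.20 to 2.65).

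**Figure D1:**
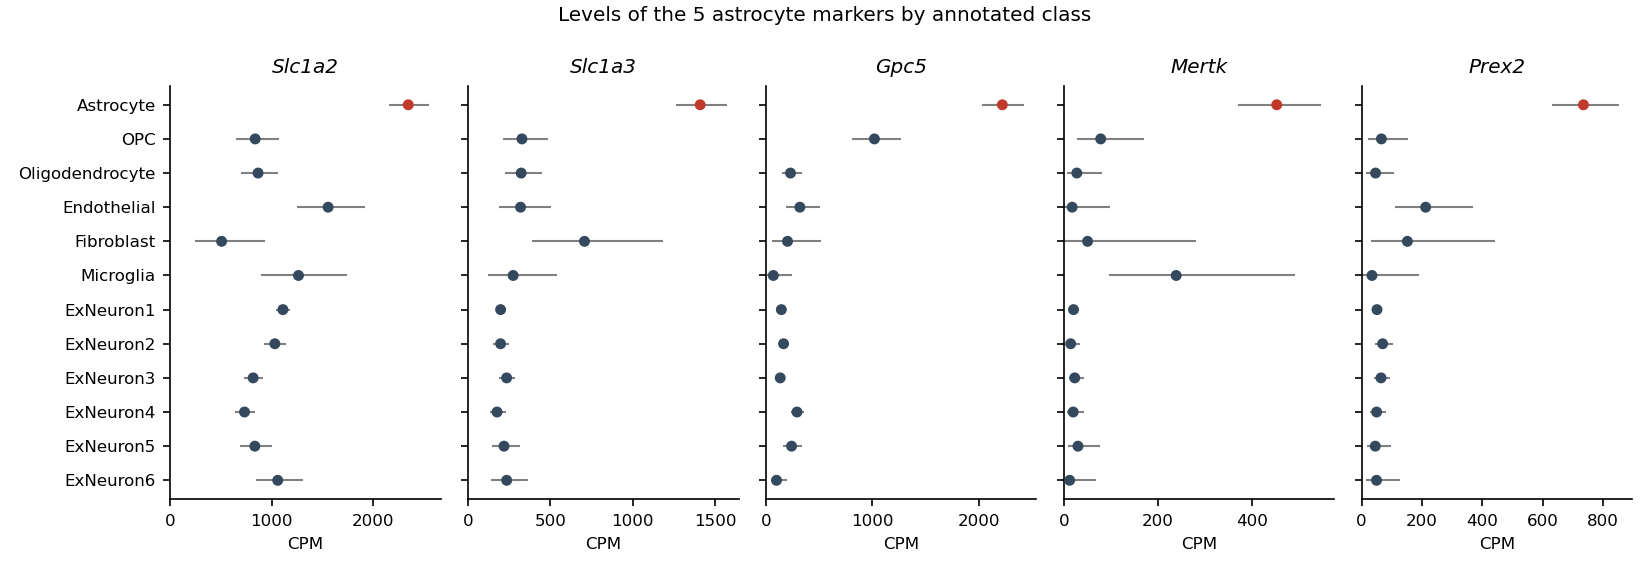
Levels of the 5 markers (x axis, CPM) in the 12 annotated classes (y axis), with exact Poisson 95% intervals as bars and astrocytes in red. Astrocytes are highest for each gene, with OPC next for Gpc5 (1019), microglia next for Mertk (239) and Slc1a2 between 505 and 1555 in every other class.

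The classes next in level differed from marker to marker. Gpc5 reached 1019 CPM in OPC, the precursors of myelinating cells, so that astrocytes were 2.18-fold higher (95% interval 1.72 to 2.80). Mertk was next highest in microglia, the resident phagocytes, at 239 CPM from only 7 UMIs, and the interval of astrocytes over microglia included 1 (lower bound 0.89). Slc1a3 was next in fibroblasts at 707 CPM and Prex2 in endothelial nuclei at 212. Slc1a2 was present everywhere, from 505 CPM in fibroblasts to 1555 in endothelial nuclei, and stood at 731 to 1109 in the 6 neuron classes.

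In GENCODE M21 on GRCm38, all 5 are protein-coding genes. Slc1a2 lies on chromosome 2 at 102658659 to 102790784 and Mertk on the same chromosome at 128698956 to 128802894, both on the plus strand. Slc1a3 lies on chromosome 15 at 8634124 to 8710764 (minus strand), Gpc5 on chromosome 14 at 115092215 to 116525179 and Prex2 on chromosome 1 at 10993465 to 11303681. Gpc5 spans 1433 kb, against 76.6 kb for Slc1a3. Per kb of gene span, Slc1a3 stood at 18.4 and Slc1a2 at 17.7 CPM in astrocyte nuclei, Mertk at 4.36, Prex2 at 2.37 and Gpc5 at 1.55. An opposite-strand gene overlaps Slc1a2, Gpc5 and Mertk (Gm13872, Gm20713 and Gm14011 among them), and the use of strand in counting was not given in the sources used here.

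Per nucleus the markers were sparse. A UMI of Slc1a2 was seen in 49.5% of the 624 astrocyte nuclei (45.5 to 53.5%), of Gpc5 in 35.3%, of Slc1a3 in 34.1%, of Prex2 in 21.0% and of Mertk in 14.3%. In microglia, which should lack Slc1a2, Slc1a3, Gpc5 and Prex2, the shares were 34.4%, 7.53%, 2.15% and 1.08% at a median of 285 UMIs. For Slc1a2 a UMI in a nucleus therefore separated the classes little. After every nucleus was thinned to 250 UMIs, which left out 17 astrocyte nuclei, the astrocyte shares were 39.4% (Slc1a2), 29.2% (Gpc5), 26.5% (Slc1a3), 14.5% (Prex2) and 11.4% (Mertk). Over all other nuclei the thinned shares were 21.5%, 4.49%, 5.86%, 1.49% and 0.641% in the same order.

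At least 2 of the 5 markers were seen in 46.0% of astrocyte nuclei (42.0 to 50.0%) and in 5.35% of all others (4.81 to 5.93%). At least 3 were seen in 24.0% against 0.453%. Conversely, 160 astrocyte nuclei had none of the 5, and 177 had 1. The next class by this count was OPC, where 14.9% of nuclei had at least 2. Thinned to 250 UMIs, the share with at least 2 was 35.3% in astrocytes and 2.93% in the others.

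**Figure D2:**
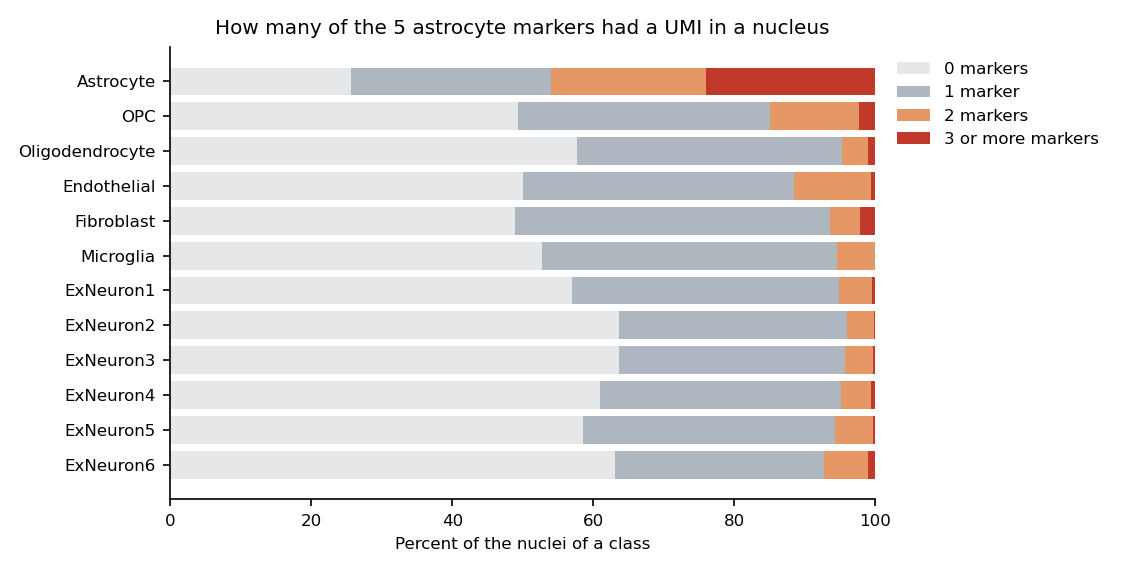
Percent of the nuclei of each class (x axis) in which 0, 1, 2 or at least 3 of the 5 astrocyte markers had a UMI. The red segment, at least 3 markers, covers 24.0% of astrocyte nuclei and at most 2.33% of any other class, while 160 of the 624 astrocyte nuclei lie in the palest segment.

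The 5 markers were not spread evenly over the 624 nuclei. In a new clustering of all 7031 nuclei, 333 astrocyte nuclei (53.4%) fell into 1 cluster that was 93.3% astrocyte, and the other 291 fell among 10 clusters led by other classes, mainly of neurons. The 333 nuclei held the summed markers at 11717 CPM and the 291 at 2276, beside 1470 in nuclei of other classes outside that cluster. Mertk stood at 833 CPM in the 333 (101 UMIs) and at 44.3 in the 291 (5 UMIs). Slc1a3 stood at 2376 and 372, Gpc5 at 3829 and 496, and Prex2 at 1296 and 133. The clustering used these genes, which by itself moves nuclei with more marker UMIs into the cluster.

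A second clustering left out every gene on the lists used here, the 5 markers included. It placed 305 astrocyte nuclei in 1 cluster, 276 of which were among the 333. In these 305 the summed markers stood at 11225 CPM, and in the 319 astrocyte nuclei outside it at 3524, against 1463 in nuclei of other classes outside it. The 166 nuclei of other classes that joined the 305 held them at 2301. Both splits thus left about as many annotated astrocyte nuclei outside as inside, and those outside held far lower levels of the markers.

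The nuclei outside the astrocyte-led cluster also held more neuronal RNA. The 15 excitatory neuron markers summed to 23895 CPM in the 291 nuclei, 13566 in the 333 and 29400 in nuclei of other classes outside the cluster. The mitochondrial median was 4.19% in the 291 and 3.31% in the 333, while the UMI medians were 338 and 339. How far neuronal RNA, whether free or from a second nucleus in the droplet, takes part in these differences was not tested.

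Across all genes, 5107 had at least 100 UMIs. Of these, 196 were at least 2-fold higher in astrocyte nuclei (3.84%) and 264 at least 2-fold lower (5.17%). The 95% interval excluded 1 for all 196 higher genes and for 204 of the 264 lower genes. With at least 100 UMIs and a ratio of at least 2, the interval lies above 1 in any case. The count for the higher genes therefore tests nothing. The minimum includes astrocyte UMIs, so a gene such as Mertk passed it only with them. The ratio was at least 4 for 34 genes and at least 8 for 10. On the edge of the 2-fold rule, the last gene inside had a ratio of 2.002 and the first outside 1.995. The median log2 ratio was -0.07 over the 5107 genes.

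**Figure D3:**
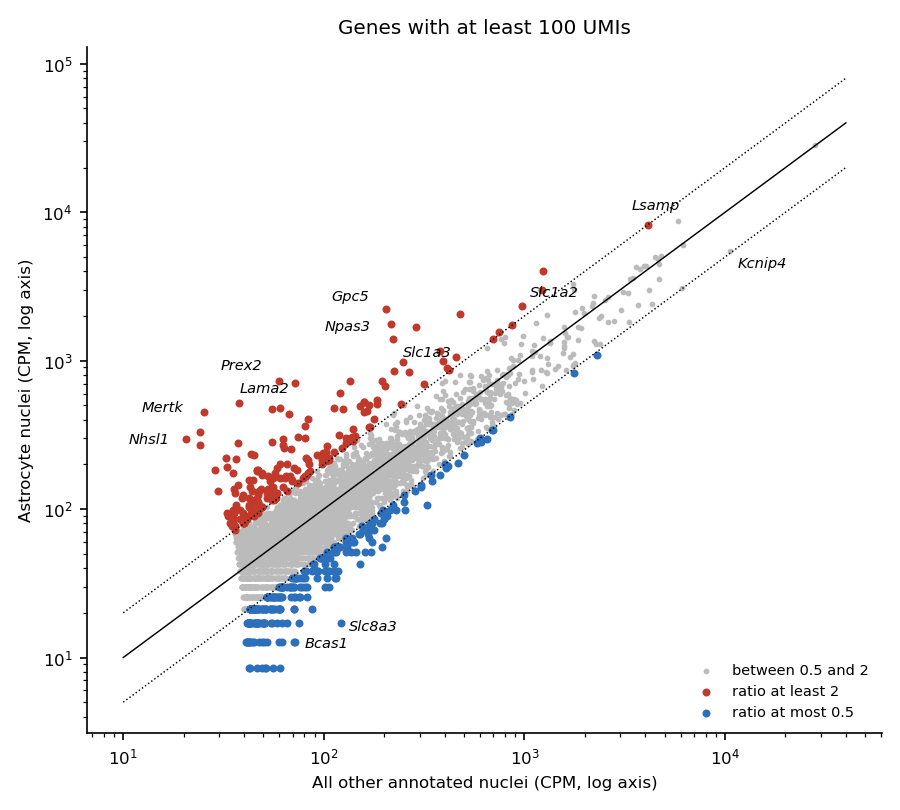
Each point is 1 of the genes with at least 100 UMIs, with its level in all other annotated nuclei (x axis) and in astrocyte nuclei (y axis), both in CPM on log axes. The solid line marks equal levels and the dotted lines 2-fold differences. Mertk, Gpc5 and Prex2 stand far above the upper line, while Slc1a2, with a ratio of 2.41, lies close to it.

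The 25 genes with the highest ratios ran from 17.9 (Mertk) to 4.94 (Ntsr2, a neurotensin receptor). After Mertk came Nhsl1 (14.3), Nwd1 (13.7), Lama2 (13.6), Prex2, Plekhg1 (11.2), Gpc5, St3gal4 (9.89), Nckap5 (8.58) and Npas3 (8.08). Lama2 encodes a laminin chain, St3gal4 a sialyltransferase and Npas3 a neuronal PAS-domain transcription factor. Plpp3, a lipid phosphatase, stood at 7.93, Phka1, a phosphorylase kinase subunit of glycogen breakdown, at 7.40, and Dock1, which acts downstream of engulfment receptors, at 6.84. Slc6a11, the GABA transporter GAT-3, stood at 6.40, Acsbg1, a fatty acyl-CoA synthetase, at 5.94 and Hepacam, a cell adhesion molecule of astrocytes, at 5.84. Ptprz1, a receptor phosphatase, stood at 5.43 and Aqp4, the water channel of astrocyte endfeet, at 5.10. Of the 25, 17 were on the lists used here.

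Not all of these leading genes were highest in astrocytes. Of the 25, 22 had their highest level in astrocyte nuclei among the 12 classes, and for 13 the interval over the next class lay above 1. OPC was the next class for 8, endothelial nuclei for 5, oligodendrocytes for 4 and fibroblasts for 4. Lama2 reached 606 CPM in fibroblasts (12 UMIs) against 517 in astrocytes. St3gal4 reached 959 in fibroblasts against 709, and Nckap5 640 in OPC against 474. When each of the 11 other classes had equal weight, the ratio of Lama2 fell to 5.25 and that of St3gal4 to 4.09. By the same weighting Mertk stood at 9.34, Nhsl1 at 9.22, Plekhg1 at 5.67, Plpp3 at 5.18, Nckap5 at 4.89 and Dock1 at 3.61.

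Against OPC, 238 of 2228 genes with at least 30 UMIs over both classes were at least 2-fold higher in astrocytes (10.7%) and 118 at least 2-fold lower (5.30%). Of the 25 leading genes, 22 were at least 2-fold higher than in OPC and 1, Nckap5, was below OPC (ratio 0.74, 0.52 to 1.06). Mertk (5.78, 2.57 to 16.1), Prex2 (11.2, 4.73 to 35.1), Slc1a3 (4.32, 2.87 to 6.77) and Plpp3 (4.07, 2.07 to 9.13) were higher in astrocytes than in OPC, as were Gpc5 (2.18, 1.72 to 2.80), Npas3 (2.49, 1.87 to 3.37) and Luzp2 (2.06, 1.58 to 2.73). The intervals of Mertk, Prex2, Slc1a3 and Plpp3 overlapped one another, and differences between genes were not tested. Ptprz1 did not separate them beyond counting error (1.17, 0.85 to 1.65). Nor did Lsamp, an adhesion molecule at 8253 CPM in astrocytes and 7537 in OPC (1.09, 1.00 to 1.20).

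Against oligodendrocytes, the myelinating cells, 264 of 2538 genes were at least 2-fold higher (10.4%) and 167 at least 2-fold lower (6.58%). Of the 25 leading genes, 22 were at least 2-fold higher, among them Mertk at 453 against 27.6 CPM (16.4, 5.47 to 80.9). Against endothelial nuclei, 262 of 2110 genes were at least 2-fold higher (12.4%) and 100 at least 2-fold lower (4.74%), and 24 of the 25 were at least 2-fold higher.

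The lists of astrocyte functions were read against all 17141 genes with a UMI. Of these, 13.5% had a ratio of at least 2 and 29.9% of at most 0.5, with a median log2 ratio of -0.20. How far counting noise gives these shares was not tested. Of the 13 genes of glutamate and GABA uptake and metabolism, 9 were at least 2-fold higher and 0 at least 2-fold lower, with a median log2 ratio of 1.85. Slc7a10, a transporter of serine and glycine, stood at 5.27 (13 UMIs) and Slc25a18, a mitochondrial glutamate carrier, at 5.85 (26 UMIs). Glul, glutamine synthetase, stood at 1.34 (1.14 to 1.58) and Aldoc, the brain aldolase, at 1.45 (1.20 to 1.74), so that these 2 classical markers were little higher than elsewhere.

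Of the 14 genes for ions, water and gap junctions, 12 were at least 2-fold higher, with a median log2 ratio of 1.57. Slc39a12, a zinc transporter, stood at 13.2 (47 against 36 UMIs). The connexins Gja1 and Gjb6 both stood at 4.05, with 60 and 18 UMIs, but with equal class weights Gjb6 stood at 1.70 and Gja1 at 3.49. The 14 genes summed to 11406 CPM in fibroblasts, above the 5463 in astrocytes. Kcnj10, the potassium channel Kir4.1, stood at 1.68 (1.05 to 2.57) and Slc12a2, a chloride cotransporter, at 0.62 (0.35 to 1.02).

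Lipid handling had 9 of 14 genes at least 2-fold higher, with a median log2 ratio of 1.10. Plpp3, Acsbg1 and Pla2g7, a platelet-activating factor hydrolase (5.41), led it. Apoe, the main brain apolipoprotein, stood at 1440 CPM against 800 (1.802, 1.60 to 2.02), and endothelial nuclei held 1520. Of the 12 engulfment genes, 5 were at least 2-fold higher, with a median log2 ratio of 0.56. Their sum was 1469 CPM in astrocytes and higher, at 1843, in microglia. The 5 were Mertk, Dock1, Megf10 (5.31), a receptor for synapse engulfment, Gulp1 (4.34), an engulfment adaptor, and Axl (2.53). Tyro3, of the same receptor family as Mertk and Axl, stood at 0.77 (0.40 to 1.34), and Elmo1, a partner of Dock proteins, at 0.62 with its highest level in microglia.

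**Figure D4:**
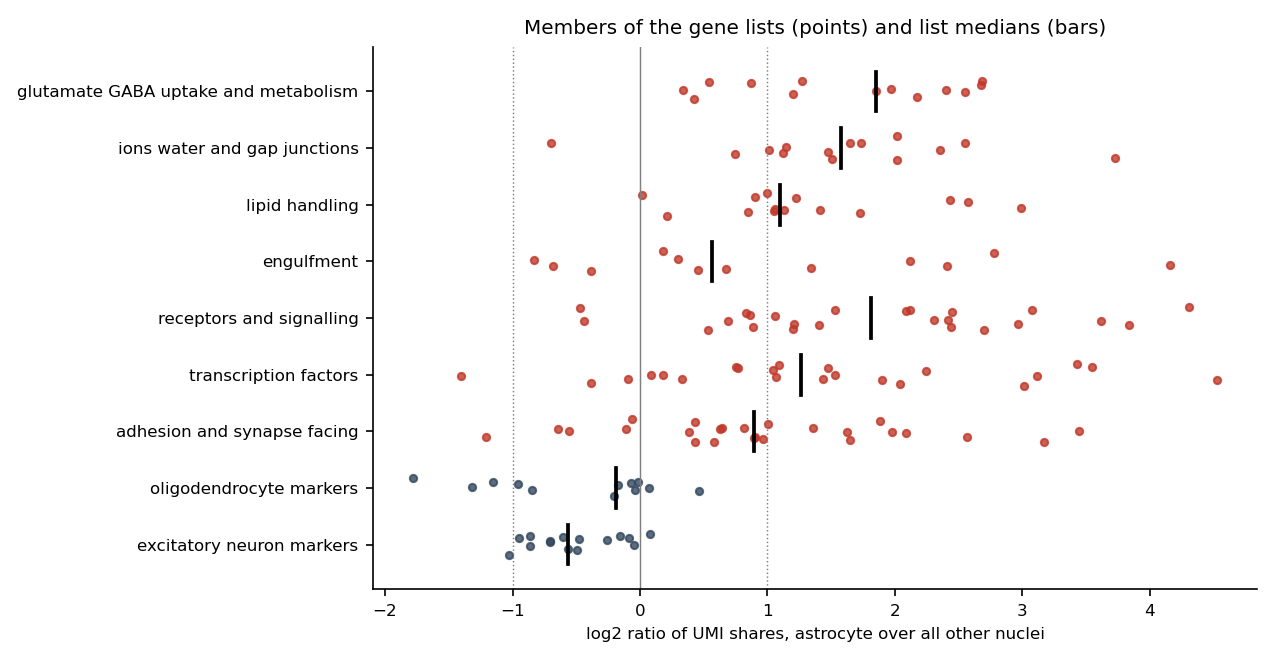
Each point is 1 gene of a list with at least 1 UMI in astrocyte nuclei, placed by its log2 ratio of UMI shares, astrocyte over all other nuclei (x axis). Bars mark the list medians, from 1.85 for glutamate and GABA genes to 0.56 for engulfment, beside -0.19 for oligodendrocyte and -0.56 for excitatory neuron markers, and dotted lines mark 2-fold differences.

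Receptors and signalling genes had 17 of 24 members at least 2-fold higher (median log2 ratio 1.81). Phkg1, the catalytic subunit of phosphorylase kinase, stood at 19.8 on 45 against 23 UMIs, beside its partner subunit Phka1 above. Bmpr1b, a BMP receptor, stood at 8.44 and Ednrb, an endothelin receptor, at 7.83. Fgfr3, an FGF receptor, stood at 5.47. Gabrb1, a GABA-A receptor subunit, had 483 UMIs and stood at 2063 against 476 CPM (4.34, 3.89 to 4.83), the highest level of the 12 classes. Grm3, the main glial metabotropic glutamate receptor, stood at 2.09, and Grm5 at 0.74.

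Among 22 transcription factors, 14 were at least 2-fold higher and 1 at least 2-fold lower (median log2 ratio 1.26). Gli2 stood at 23.0 (25 against 11 UMIs) and Gli3 at 10.8 (34 against 32 UMIs), both transducers of hedgehog signalling, and Glis3, a GLI-similar factor, at 11.7. Rfx4 stood at 8.68, Sox6 at 4.12 and the nuclear receptor Rorb at 3.73. Sox9, a factor of glial identity, had 28 UMIs and stood at 2.13, but at 1.25 thinned to 250 UMIs and 1.56 with equal class weights, while Nfib (1.06) and Nfix (0.77) did not separate the class and Nfia did (2.06). Of 25 adhesion and synapse-facing genes, 10 were at least 2-fold higher and 1, Slit2, at least 2-fold lower (8 against 187 UMIs; 0.43, 0.18 to 0.87), with a median log2 ratio of 0.90. Higher were among others Lrig1 (8.98), Luzp2 (5.92), Cdh20 (4.25) and Gpc6 (3.94), beside Gpc5.

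Of 15 further astrocyte markers, 13 were at least 2-fold higher and 0 at least 2-fold lower (median log2 ratio 2.02), with Aldoc and S100b the remaining 2. Their sum was 3904 CPM in astrocytes and 4088 in fibroblasts. The classical structural and reactive markers among them gave few UMIs. Gfap, the intermediate filament of reactive astrocytes, had 18 UMIs in 624 nuclei (ratio 3.09, 1.72 to 5.31), and its ratio was 1.62 in the own astrocyte-led cluster. S100b had 16 (1.36, 0.75 to 2.30). Aldh1l1, a folate enzyme used as a pan-astrocyte marker, had 12 (3.92, 1.83 to 7.85). Of 16 genes linked to reactive astrocytes, Serpina3n, Lcn2, Steap4, Cxcl10 and Nes had 0 UMIs in astrocyte nuclei, and the list had 77 UMIs in all, so reactive states could not be read at this depth. The list had 5 genes at least 2-fold higher and 5 at least 2-fold lower, all 5 of the latter with at most 1 UMI in astrocyte nuclei. Tnc, a matrix protein, had 14 UMIs in astrocyte nuclei and 10 in all others (14.2, 5.86 to 35.7), and Cd44, a hyaluronan receptor, 12 and 48 (2.53, 1.22 to 4.84). Of 8 progenitor and cycling genes, 3 were at least 2-fold higher, among them Egfr (5.39, 3.18 to 8.93), and 2 at least 2-fold lower, Nes and the proliferation marker Mki67, each with 0 UMIs. They summed to 235 CPM in astrocytes and 555 in fibroblasts. Of 8 immediate early genes, 1 was at least 2-fold higher and 1 at least 2-fold lower, each with at most 2 UMIs in astrocyte nuclei.

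Defining genes of other classes were low or at the level of the other nuclei. The 10 microglia markers summed to 239 CPM in astrocyte nuclei and 249 in all others, the 10 endothelial markers to 167 and 202, and the 12 oligodendrocyte markers to 2392 and 2765. The 10 OPC markers summed to 927 and 992. The 10 mural and leptomeningeal markers were somewhat higher, at 209 against 145 (ratio 1.44, 1.05 to 1.95), beside 2978 in fibroblasts. Ependymal markers, with 11 UMIs and 5 of 9 genes at 0, stood at 47.0 and 43.9. Endothelial Flt1 and Ptprb had 1 UMI each and Kdr 0, while Cldn5, a tight junction gene, had 8 (3.00, 1.18 to 6.79; 34.2 CPM against 124 in endothelial nuclei), and the OPC genes Cspg4, Olig2 and C1ql1 had 0. Mbp, myelin basic protein, stood at a ratio of 0.99. At least 3 UMIs of the markers of 1 other glial or vascular class were found in 56 astrocyte nuclei (8.97%), in 51 of them from oligodendrocyte markers. The same oligodendrocyte count was reached in 72.8% of oligodendrocytes and 5.39% of neuronal nuclei.

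Neuronal transcripts remained abundant in astrocyte nuclei. The excitatory markers summed to 18548 CPM against 29366 elsewhere (ratio 0.63, 0.61 to 0.65), and 1 of 15 was at least 2-fold lower. The 10 inhibitory neuron markers summed to 1418 against 1803 CPM, with 2 of them at least 2-fold lower. Their sum was 4732 in ExNeuron4 and 3040 in ExNeuron6 against 1002 in ExNeuron1 and 3226 in OPC. Over all genes with a UMI, 29.9% were at least 2-fold lower, a larger share than in either list. Snap25, a synaptic vesicle fusion protein, was seen in 54.5% of astrocyte nuclei and in 60.2% of microglia, a class that should lack it. Nrgn stood at 0.97 and Kcnip4, the channel-interacting protein with 1280 UMIs, at 0.52 (0.49 to 0.55). Among the 15 genes with the most UMIs in astrocyte nuclei, Gm42418 stood at 1.02, Dlgap1 at 0.96, Malat1 at 1.49 and Lsamp at 2.00.

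The 15 genes with the lowest ratios (0.14 to 0.24) each had only 2 to 5 UMIs in astrocyte nuclei. They included Slc8a3, a sodium-calcium exchanger (4 against 288 UMIs; 0.14, 0.04 to 0.36), Kcnmb2, a potassium channel subunit, Rtn4r, the Nogo receptor, and Bcas1, a gene of the oligodendrocyte lineage that reached 771 CPM in OPC.

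The genes higher in astrocyte nuclei were long. Their median span was 111.7 kb and that of the lower genes 86.2 kb, against 53.2 kb over all genes with at least 100 UMIs. A span over 100 kb was found for 54.6% of the higher, 48.1% of the lower and 30.8% of all these genes.

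Within the astrocyte nuclei, a few genes varied far more than counting predicts. Among 776 genes with at least 50 UMIs, the variance over the Poisson expectation had a median of 1.05. Kcnip4 (3.03), Ank2 (2.74), Gpc5 (2.68), Gria1 (2.30) and Gria4 (2.03) were among the 15 highest. Gria1 and Gria4 are AMPA receptor subunits.

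Clustering of the 624 nuclei with all list genes left out gave 2 groups, a split chosen after these values were seen. The smaller held 141 nuclei (22.6%) and the other 483. Plce1, a phospholipase C, stood at 885 CPM in the smaller group (47 UMIs) against 82.9 in the rest (10.7-fold), and Ctnna3, an alpha-catenin, at 1506 against 171 (8.79-fold). Ppm1h, Mpp6, Srgap1 and Ank2 (4.32-fold) were also among its leading genes, and the clustering could use all of these. It is called the Plce1-rich group, with no cell type name. Over 3 resolutions, with and without list genes, the other 5 clusterings gave a best-matching group of 139 to 146 nuclei, 118 to 137 of them the same.

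List genes, which this clustering did not use, differed between the groups. Gria1 stood at 3653 CPM in the Plce1-rich group against 425 in the rest (8.59-fold, 6.56 to 11.3) and was seen in 60.3% against 12.0% of nuclei. Gria4 stood at 5103 against 1122 (4.55-fold), Gpc6 at 2598 against 503 (5.17-fold), Slc4a4, the bicarbonate transporter, at 1977 against 580 (3.41-fold) and Npas3 at 3879 against 1133 (3.42-fold). Among the 5 markers, Slc1a3 stood at 3050 against 928 (3.29-fold, 2.63 to 4.10), Prex2 at 1713 against 448 (3.83-fold, 2.81 to 5.23) and Mertk at 829 against 343 (2.42-fold, 1.61 to 3.62). Gpc5 went the other way, at 1375 against 2470 (0.56, 0.43 to 0.71), as did Slc1a2, at 1902 against 2475 (0.77, 0.61 to 0.96). Rorb stood at 734 against 724. These values set the group against nuclei of both high and low marker level, and several change when only nuclei inside the astrocyte-led cluster are compared. The median UMI count was 357 in the Plce1-rich group and 335 in the rest, the mitochondrial median 3.00% and 3.97%, and the summed excitatory markers 14009 and 19879 CPM.

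Of the 141 Plce1-rich nuclei, 138 lay inside the astrocyte-led cluster of all nuclei, but only 195 of the other 483 did. In the clustering made without the list genes, which these genes could not shape, the numbers inside were 131 and 174. Both comparisons inside the cluster were chosen after seeing the data, and the values here are from the second. Gria1 stood at 3779 against 687 CPM (5.50-fold, 3.92 to 7.89), Gria4 at 5133 against 1292 (3.97-fold, 3.08 to 5.18) and Gpc6 at 2688 against 948 (2.83-fold, 2.07 to 3.93). These 3 stayed higher in the Plce1-rich nuclei, by smaller factors than over all 624 nuclei. The same held for Slc1a3 (1.83-fold, 1.42 to 2.37), Prex2 (1.96-fold, 1.38 to 2.79), Npas3 (1.75-fold, 1.40 to 2.19) and Slc4a4 (2.17-fold, 1.55 to 3.06). Mertk, at 849 against 817, was not separated beyond counting error (1.04, 0.67 to 1.60). Gpc5, at 1354 against 5281 (0.26, 0.19 to 0.33), and Slc1a2, at 1900 against 4349 (0.44, 0.34 to 0.55), lay further below than over all nuclei. Rorb was lower in the Plce1-rich nuclei, at 687 against 1243 (0.55, 0.36 to 0.84). In the clustering with all genes the ratios were 1.03 for Mertk, 0.52 for Rorb, 0.24 for Gpc5 and 1.69 for Slc1a3. The excitatory markers summed to 13803 CPM in the 131 and 13586 in the 174.

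Of the rarer genes on the Bergmann glia list, Gdf10, A2m and Dao were higher in the Plce1-rich group, and others were not. Of 19 Gdf10 UMIs, 14 were in the 141 Plce1-rich nuclei (9.54-fold, 3.25 to 33.9). The protease inhibitor gene A2m had 17 of 22 UMIs there (11.6-fold, 4.10 to 40.2) and Dao, D-amino acid oxidase, 12 of 15 (13.6-fold, 3.68 to 75.3). Inside the cluster made without the list genes the UMIs were 14 against 2 for Gdf10 (8.65-fold, 1.99 to 78.4), 17 against 3 for A2m (7.004-fold, 2.03 to 37.3) and 12 against 2 for Dao (7.42-fold, 1.65 to 68.2). Timp4, with 5 of 11, did not separate the groups beyond counting error (2.84-fold, 0.69 to 11.2). Of the 12 genes on the Bergmann glia list with a UMI, 7 were at least 2-fold higher in astrocyte nuclei than elsewhere and 1 at least 2-fold lower (median log2 ratio 1.46). Over all genes with a UMI these shares were 13.5% and 29.9%. Ptprz1 was also higher in the Plce1-rich group (2.89-fold, 2.12 to 3.95; inside the cluster 1.46, 1.02 to 2.10), Fabp7 had 4 of 7 UMIs there, and Zic1 did not separate the groups (1.17-fold, 0.55 to 2.31). Wif1 and Hepacam2 had 0 UMIs in astrocyte nuclei, and Slc6a11 (7 of 43 UMIs; 0.66, 0.25 to 1.51) and Rgs6 (0.43, 0.20 to 0.82) did not follow. The list was chosen with earlier results of these data known.

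Nuclei were also split by a UMI of 4 genes of the Bergmann glia list, with no new clustering. Of these, Gdf10, A2m and Dao were higher in the Plce1-rich group above, and Slc6a11, Rgs6 and Zic1 were not used. Of 56 astrocyte nuclei with a UMI of Gdf10, A2m, Dao or Timp4, 57.1% had a UMI of Gria1 (43.2 to 70.3%), against 19.5% of the other 568 (16.4 to 23.0%). For Gria4 the shares were 64.3% and 36.4%, and for Gpc5 14.3% and 37.3%. General astrocyte markers moved with this split too: the shares were 53.6% and 32.2% for Slc1a3 and 26.8% and 13.0% for Mertk, but 51.8% and 49.3% for Slc1a2. The median UMI counts of the 2 sets were 351.5 and 338. The 4 genes were seen in 8.97% of astrocyte nuclei and in 1.53% of all others. Of the 56 nuclei, 67.9% lay in the Plce1-rich group, against 18.1% of the 568. This split is therefore not independent of that group. Gpc5 was seen in 17.5% of nuclei with a Gria1 UMI and in 40.5% of those without.

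**Figure D5:**
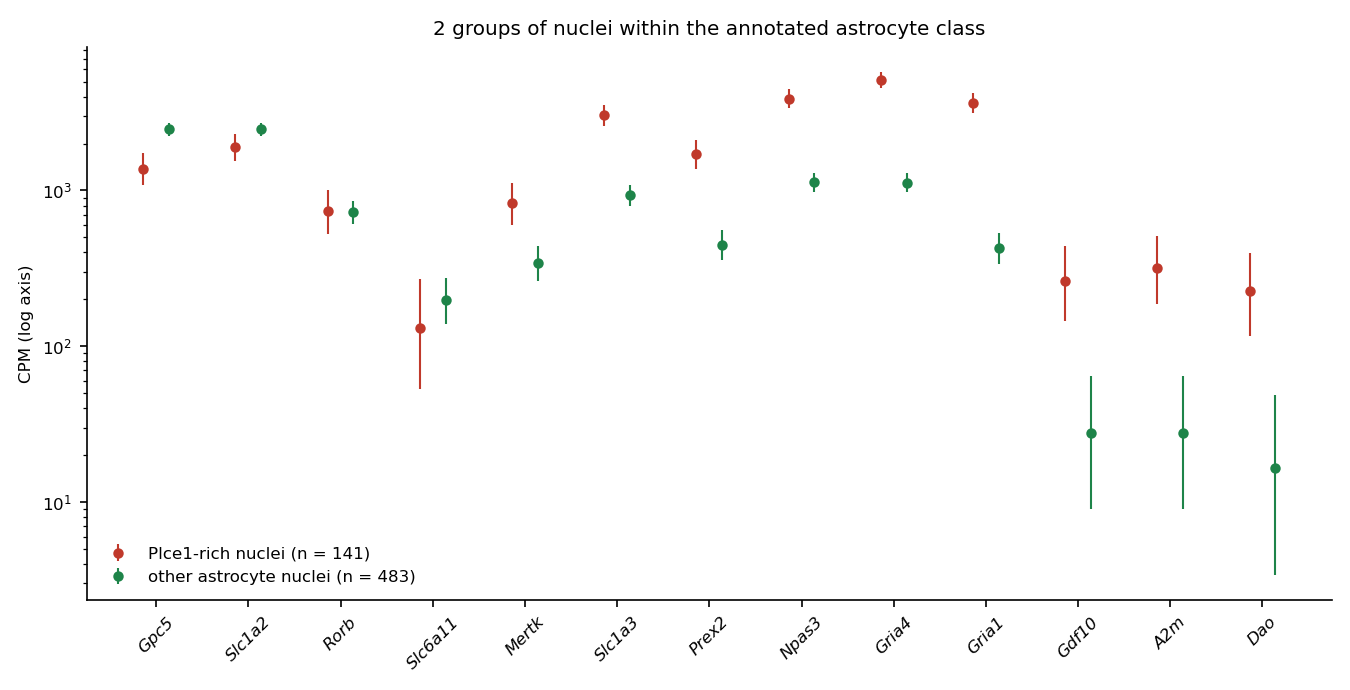
Levels (y axis, CPM, log axis) of 13 list genes (x axis), none used by the clustering, in the 141 Plce1-rich nuclei and the other 483 astrocyte nuclei, with exact Poisson 95% intervals. Gria1 (3653 and 425), Gria4 and Slc1a3 are higher in the first group and Gpc5 (1375 and 2470) in the second.

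Several of the leading genes owed part of their ratio to the Plce1-rich nuclei. Without these 141 nuclei, Lama2 had a ratio of 7.71 in place of 13.6, Prex2 7.47 in place of 12.3, Npas3 5.21 in place of 8.08 and Slc1a3 4.21 in place of 6.39. Gpc5 had 12.1 in place of 10.9. Among other list genes, the Plce1-rich nuclei held 11 of the 14 Tnc UMIs of the class (12.5-fold over the other astrocyte nuclei, 3.30 to 69.8). They also held 22 of the 39 Lrig1 UMIs and 138 of the 229 Gpc6 UMIs, so these class ratios too rest largely on them.

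Regional markers were sparse. Of the 8 genes of telencephalic astrocytes, 3 were at least 2-fold higher and 2 at least 2-fold lower. Over all genes with a UMI these shares were 13.5% and 29.9%. The 8 genes summed to 282 CPM in astrocytes against 133 in all other nuclei (2.12, 1.60 to 2.77), and to 303 in fibroblasts. Emx2 had 0 UMIs in astrocyte nuclei and 12 in all others. Mfge8 had 25 UMIs (3.84, 2.32 to 6.16) and Lhx2 5. Of the 7 genes of astrocytes outside the telencephalon, 5 were at least 2-fold higher: Slc6a11, Slc6a9 (2.38), Agt (3.51, 9 UMIs), Itih3 (10.97, 13 UMIs) and Irx2 (3 UMIs). The 7 genes summed to 701 CPM in astrocytes against 348 in all other nuclei (2.01, 1.69 to 2.38), and to 742 in endothelial nuclei. Both regional lists were thus higher in astrocyte nuclei by similar factors. Zic1 stood at 1.08. Granule neuron genes, known from the cerebellum, were present in the library too. The 11 genes summed to 1824 CPM in astrocyte nuclei and 2955 elsewhere, with Gabra6 at 25 UMIs in astrocyte nuclei and 526 in the others (0.48, 0.31 to 0.72). The labels name only cortex, and the brain region behind these genes and behind the Plce1-rich nuclei was not tested.

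Marker levels in CPM showed no order with depth within the class. In 3 sets of 208 nuclei by total UMIs (239 to 303, 304 to 381 and 381 to 966), the summed 5 markers stood at 6859, 7711 and 6962 CPM, and at least 2 markers were seen in 38.0%, 48.1% and 51.9% of nuclei. The excitatory markers stood at 17401, 16764 and 20359 CPM.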

How the data were processed

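The deposited matrix of the droplet library gives unnormalized UMI counts of 19905 genes in 7031 nuclei, with classes and clusters from the authors' annotation; the other 5 samples have no such classes and were not used here. Per the file headers, counts were made on a reference named mm10_premrna, and the authors' annotation gives the mitochondrial fraction of UMIs per nucleus. The submitters' processing notes list the builds hg19 and mm10. The aligner and counter were not given in the sources used here. Nuclei had been filtered before deposit (220 to 792 genes). In 131 nuclei the summed counts lie 1 UMI under the total in the annotation. Doublets were neither called nor removed.

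UMIs were summed over nuclei. Counts have exact Poisson, shares Clopper-Pearson and ratios exact conditional binomial 95% intervals. UMIs without replicate libraries measure counting error alone. Genes named were those of the lists, the 25 highest and 15 lowest ratios with at least 100 UMIs, and the 15 with the most UMIs. Genes leading a group of nuclei were chosen after their values were seen. The members and lists were chosen with earlier results of these data known. Ratios and intervals were tested on simulated counts that varied by counting error alone. Such counts cannot show how the intervals perform for genes that vary more among nuclei, such as Gpc5 and Gria1. Own clusters used scanpy 1.11.5 (all nuclei: 2000 variable genes, 30 components, resolution 1; astrocyte nuclei: 500 genes, 10 components, resolution 0.3; 15 neighbours). TMM scaling used edgeR 4.0.16 in R 4.3.3, and spans came from GENCODE M21 (GRCm38), which matched 5103 of the 5107 genes. Thinning drew 250 UMIs per nucleus without replacement. Alternatives varied the count minimum, weighting, depth, scaling, annotation and nuclei. Some genes that these rules select are not reported here.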

Additional observations from a re-analysis of the deposited data

How the results depend on the processing

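The counts of 196 higher and 264 lower genes depend on the count minimum: 389 and 557 at 50 UMIs, 54 and 68 at 300, and 2310 and 5129 with no minimum, by construction of the gene set. Thinned to 250 UMIs, 419 genes were at least 2-fold lower. With the own astrocyte-led cluster in place of the annotation, chosen for these counts after seeing the data, 321 were higher and 769 lower. The cause of these 2 shifts was not tested. Under equal class weights, per-nucleus means, TMM scaling (212 higher and 208 lower) and without the Plce1-rich nuclei (also chosen after seeing the data), both counts stayed within 1.5 times. The 25 leading ratios lay between 3.56 and 32.2 under the 6 alternatives run for them. Mertk ranged from 9.34 with equal class weights to 32.2 in the own cluster, and S100b, at 1.36, from 0.74 to 1.54. At this depth, intervals ran from 3.74 to 6.91 for Aqp4, with 66 UMIs in astrocyte nuclei, and from 4.27 to 9.52 for Slc6a11, with 43. Genes with only a few UMIs have intervals several-fold wide. The 9 ependymal markers gave no median ratio, since 5 had 0 UMIs in astrocyte nuclei. No paired analysis was possible because the droplet data are 1 library.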
